A study of Mus musculus with 4 samples.

Results

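The 37 genes described here serve the cell's response to low oxygen and the breakdown of glucose to lactate, among 31053 genes in the deposited matrices. They were chosen by name, with earlier results of these data known, and none of them took part in sorting cells into classes. The material was mammary epithelium of 4 mice of strain FVB, taken from the fourth glands at 9 weeks of age and profiled by droplet-based single-cell sequencing of transcript 3′ ends. All 4 mice carried the same alleles, Tfap2c fl/fl, floxed copies of the AP-2γ transcription factor gene that Cre can delete, and Krt5-CreERT2, which makes a drug-inducible Cre recombinase in cells that use the basal keratin 5 promoter. From week 4, 2 mice received corn oil, the vehicle, and 2 received 4-hydroxytamoxifen (4OHT), the inducing drug, with 1 library per mouse. The labels give the length of the injections as 5 days in one field and as a longer course in another.

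Cells sense oxygen through prolyl hydroxylases (Egln1 and Egln3 are among them), which mark HIF-1α, the product of Hif1a, for destruction while oxygen is present. When oxygen falls, HIF-1α accumulates, pairs with ARNT and binds short DNA motifs at genes for glucose uptake, glycolysis, lactate export and blood vessel growth. Much of this control acts on the protein, so the Hif1a transcript is not a measure of HIF-1α activity. The mammary duct is built of an outer basal, myoepithelial layer and an inner luminal layer, which holds secretory luminal progenitors and hormone-sensing cells that carry estrogen and progesterone receptors.

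Cells with at least 1000 unique molecular identifiers (UMIs, each standing for 1 captured transcript) were sorted by transcripts of marker genes. Basal cells needed at least 5 UMIs of Krt5, Krt14, Krt17 and Acta2 together and more than 3 times as many of these as of Krt8, Krt18 and Krt19, and luminal cells the reverse. Luminal cells with at least 3 UMIs of Ly6d, Fxyd2 and Gpx3, and more of these than of Wfdc18, Csn3 and Ltf, were taken as hormone-sensing and the others as luminal progenitors. Of 18223 cells, each library gave 1421 to 2178 basal, 1132 to 1770 luminal progenitor and 151 to 447 hormone-sensing cells, and 572 to 1358 cells of each library met no class. The library totals ran from 17351950 to 22017878 UMIs, and no library pair shared more than 0.749% of the smaller library's cell barcodes. The 9 basal markers summed to between 12780 and 18590 CPM in basal cells (each count scaled to a common total per library and class). They reached at most 394.9 CPM in either luminal class. The 9 hormone-sensing markers summed to between 4075 and 5036 CPM in hormone-sensing cells against at most 262.8 CPM in the other 2 classes. Both lists hold the genes that set their own gates, so these sums are no independent check of the classes. Dcn, a fibroblast matrix gene, was at 1325 CPM in the hormone-sensing cells of 4OHT-labelled replicate 1 and at 50.6 to 243 CPM in the other libraries. The targeted gene did not separate the treatment labels. In basal cells Tfap2c stood at 344 and 273 normalised CPM with corn oil against 254 and 334 for the libraries labelled 4OHT. The 2 groups overlapped. Counts from 3′ ends carry no information on which exons remain, so directions for 4OHT rest on the labels alone.

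To show what DNA lies in front of genes that separated the classes widely, the 250 bases before the start of 6 members that hold a motif are printed 5′ to 3′ on the strand of the gene, from RefSeq (GRCm38.p6). The capitals mark ACGTG, the core of the hypoxia response element, and GCGTG, its common variant, found on either strand (as CACGT and CACGC on the other).
Ppp1r3c: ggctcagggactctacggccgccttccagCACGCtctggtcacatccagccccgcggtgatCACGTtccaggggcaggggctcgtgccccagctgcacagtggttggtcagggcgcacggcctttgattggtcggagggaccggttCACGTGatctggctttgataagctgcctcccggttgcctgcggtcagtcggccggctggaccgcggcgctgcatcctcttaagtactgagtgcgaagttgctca
Pdk4: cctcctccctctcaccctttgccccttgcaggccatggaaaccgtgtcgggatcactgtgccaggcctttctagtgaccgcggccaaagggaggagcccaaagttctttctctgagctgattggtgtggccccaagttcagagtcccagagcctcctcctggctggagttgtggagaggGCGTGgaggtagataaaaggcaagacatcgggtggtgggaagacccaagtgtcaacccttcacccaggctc
Slc2a1: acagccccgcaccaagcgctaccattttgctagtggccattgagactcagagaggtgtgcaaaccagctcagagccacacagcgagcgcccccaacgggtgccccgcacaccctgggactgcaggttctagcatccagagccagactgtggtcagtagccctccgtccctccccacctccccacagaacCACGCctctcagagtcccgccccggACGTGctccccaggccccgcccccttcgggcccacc
Adm: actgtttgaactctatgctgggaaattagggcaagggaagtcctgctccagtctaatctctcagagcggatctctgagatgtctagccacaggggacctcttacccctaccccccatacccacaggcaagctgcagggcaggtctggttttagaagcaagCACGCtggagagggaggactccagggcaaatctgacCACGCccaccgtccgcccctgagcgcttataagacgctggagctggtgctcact
Edn2: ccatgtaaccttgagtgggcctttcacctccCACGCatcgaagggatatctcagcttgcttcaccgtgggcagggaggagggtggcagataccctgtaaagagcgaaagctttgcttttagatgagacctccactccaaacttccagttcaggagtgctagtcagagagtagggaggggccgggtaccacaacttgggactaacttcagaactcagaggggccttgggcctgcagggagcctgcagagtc
Egln3: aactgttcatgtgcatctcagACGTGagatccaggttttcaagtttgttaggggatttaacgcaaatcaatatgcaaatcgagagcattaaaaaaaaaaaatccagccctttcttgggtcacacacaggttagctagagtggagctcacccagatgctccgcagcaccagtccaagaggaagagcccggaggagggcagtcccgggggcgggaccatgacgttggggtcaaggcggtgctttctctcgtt
These windows run for Ppp1r3c from chr19:36736605-36736854 on the minus strand, Pdk4 from chr6:5496279-5496528 on the minus strand, Slc2a1 from chr4:119108495-119108744 on the plus strand, Adm from chr7:110627407-110627656 on the plus strand, Edn2 from chr4:120160956-120161205 on the plus strand and Egln3 from chr12:54203875-54204124 on the minus strand. The marked runs before Ppp1r3c number 3, one of them the palindrome CACGTG, which holds ACGTG on both strands and is also the motif of other factors. Over the full RefSeq windows, which reach past the start, 34 of the 37 members had an entry (not Ndufa4l2, Bnip3l and Stc1), with 47 promoters in all. ACGTG was in 28 of these 47 promoters (59.6%) against 19.6% of all 32851 promoters of the same length, and either motif was in 39 (83.0%) against 43.8%. GCGTG was in 59.6% against 32.4%. Either motif was also in 18 of 22 promoters (81.8%) of genes for pyruvate entry and the TCA cycle, and ACGTG in 45.5% of those 22. For other genes of the hypoxia response, ACGTG was in 9 of 32 promoters (28.1%) and either motif in 65.6%. Either motif was in 78.6% of promoters of genes induced by tissue dissociation and in 83.3% for ATF4 response genes. A match is a description of letters and no measure of binding, and base composition was not matched.

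The members were most abundant in basal cells. Together they made up 2.38% to 3.18% of all UMIs of basal cells, 1.16% to 1.49% of luminal progenitor cells and 0.650% to 0.970% of hormone-sensing cells, with no overlap between the classes in any library. The class contrasts below compare summed counts per library and class with edgeR's quasi-likelihood test, with library as a block, since the classes come from the same 4 mice. Levels are normalised CPM, which are CPM after the TMM scaling of that fit, with 1 value per library in the order corn oil replicates 1 and 2, then 4OHT-labelled replicates 1 and 2. All 37 members passed the filter on low counts in this fit. In luminal progenitors against basal cells, 29 members were lower and 2 higher at an adjusted p under 0.05, where 29.5% of 11135 genes were lower and 26.6% higher (56.1% in either direction). Their median log2 fold change was −0.96 against −0.04 over all genes. With a stricter keratin ratio for both classes, the median was −0.53 over the 36 members tested, 3 were higher and 21 lower, and Gapdh, Pkm, Pfkl, Hk2, Bnip3, Bnip3l, Higd1a and Mxi1 lost their calls in this contrast. In hormone-sensing against basal cells, 33 were lower and none higher (32.4% and 27.3% of all genes, 59.8% in either direction), with a median of −2.05 against −0.08. The groups were also apart without a model: all 4 basal values lay above all 4 hormone-sensing values for 31 members (27% of all genes) and above all 4 luminal progenitor values for 24 (23.2%). The reverse, all 4 hormone-sensing values above all 4 basal values, held for 0 members and for 21% of all genes, a count of ranges with no test. A stepwise order with no overlap, basal above luminal progenitor above hormone-sensing, held for 13 members and for 3.82% of all genes.

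**Figure D1:**
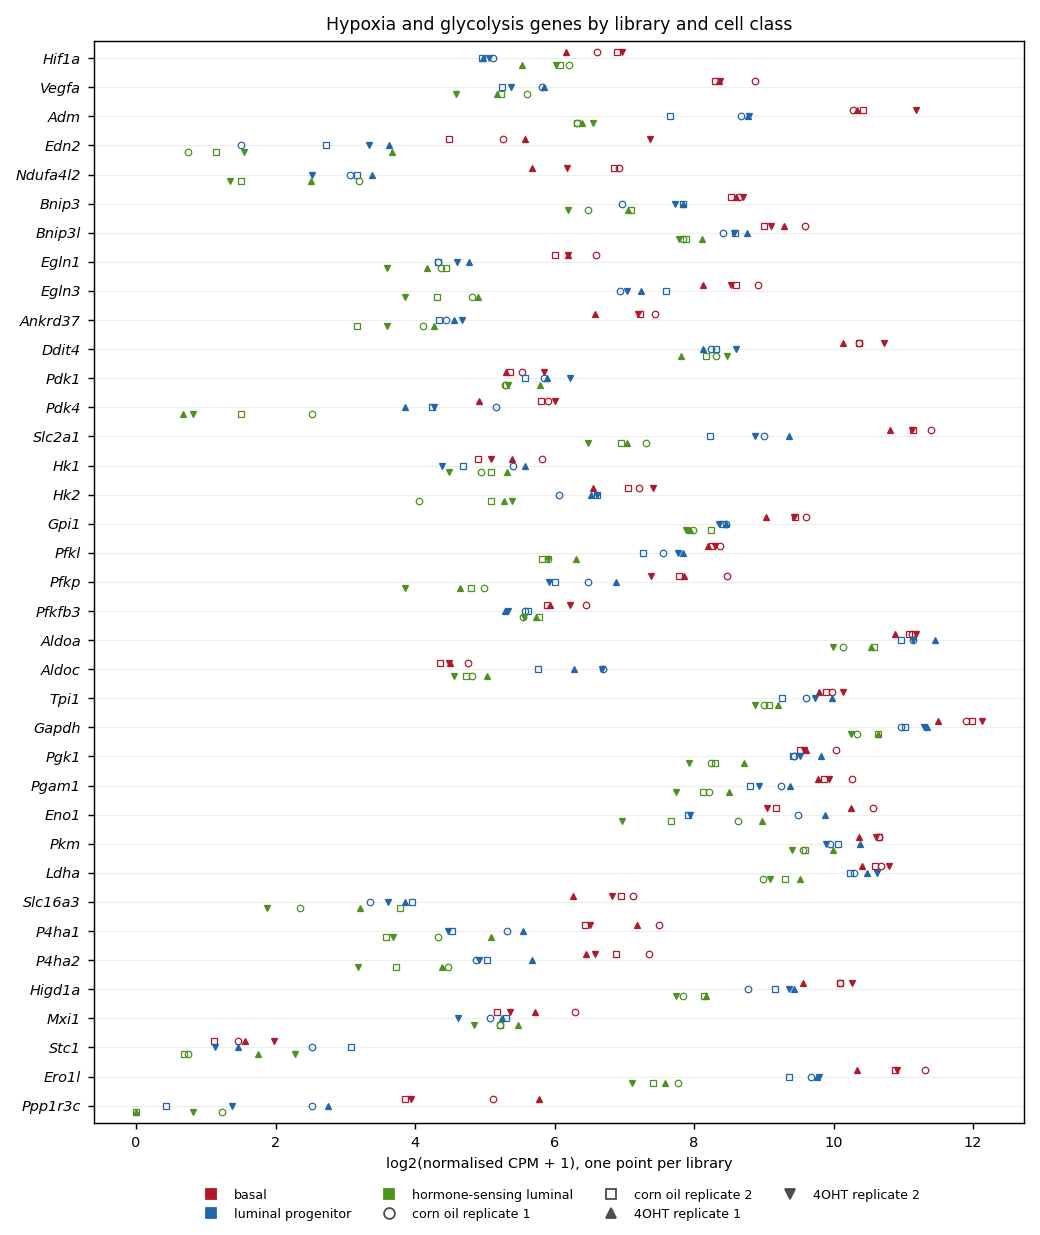
Level of each of the 37 genes in every library, as log2(normalised CPM + 1), by cell class (colour) and library (marker shape, with open markers for corn oil). Basal points lie to the right for most genes, as in Slc2a1, Vegfa and Ddit4, while Aldoc lies to the right in luminal progenitors.

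**Figure D2:**
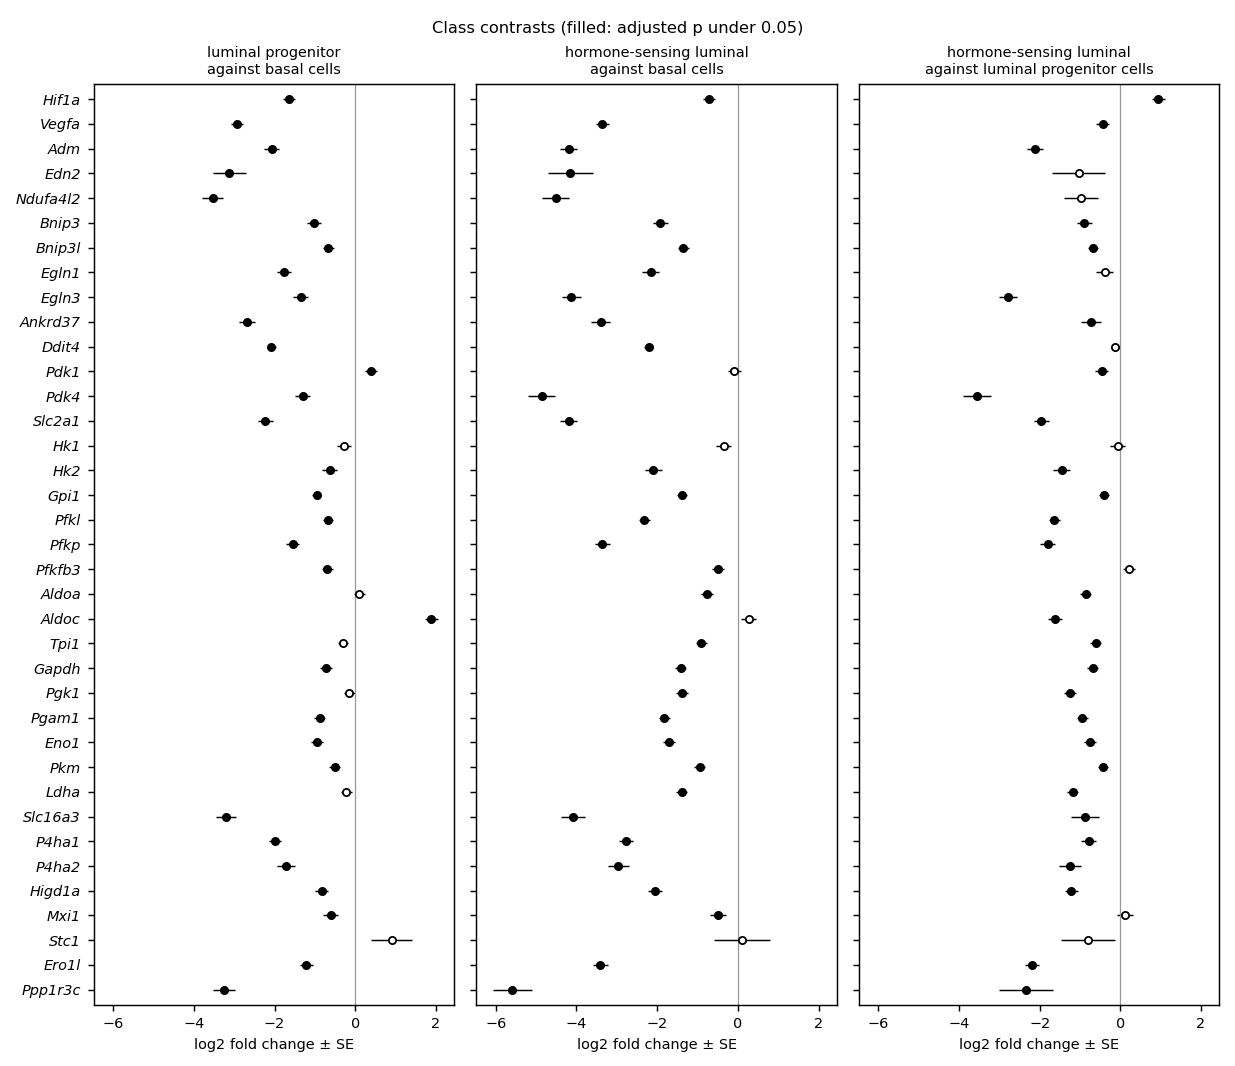
Log2 fold changes with standard errors for the 3 class contrasts, 1 row per gene, filled where the edgeR adjusted p was under 0.05. In the middle panel 33 of 37 genes are filled to the left of 0.

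The oxygen sensing genes did not share 1 order. Hif1a itself was at 96.5, 118, 70.4 and 124 normalised CPM in basal cells, at 33.9, 30.0, 30.6 and 32.5 in luminal progenitors and at 72.8, 66.6, 45.3 and 63.7 in hormone-sensing cells. Luminal progenitors were lowest in every library, and it was the 1 member that was higher in hormone-sensing cells than in luminal progenitors (log2 fold change 0.94 ± 0.15 (SE), adjusted p 1.21e-04). Egln3, a hydroxylase that is itself induced by HIF, followed another order. It stood at 484, 386, 279 and 370 normalised CPM in basal cells, at 122, 192, 150 and 131 in luminal progenitors and at 27.2, 18.9, 28.8 and 13.4 in hormone-sensing cells. No 2 classes overlapped, and hormone-sensing cells were 17.5-fold lower than basal cells (log2 −4.13 ± 0.23 (SE), adjusted p 3.92e-10). Egln1, the main oxygen sensor, was at 63.1 to 95.2 normalised CPM in basal cells, 19.0 to 26.4 in luminal progenitors and 11.1 to 20.8 in hormone-sensing cells, and the luminal classes overlapped. Ankrd37, a HIF target of little known function, was at 173, 149, 94.6 and 146 normalised CPM in basal cells and at 20.7, 19.2, 22.7 and 24.6 in luminal progenitors. It was 6.39-fold lower in luminal progenitors than in basal cells (log2 −2.68 ± 0.20 (SE), adjusted p 8.56e-09) and 10.6-fold lower in hormone-sensing cells.

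Of the 4 members that encode secreted factors, Vegfa, Adm and Edn2 were lower in both luminal classes than in basal cells. Vegfa, the growth factor of blood vessels, was at 468, 315, 327 and 330 normalised CPM in basal cells, at 55.8, 37, 56.6 and 40.6 in luminal progenitors and at 47.6, 36.7, 35.3 and 23.0 in hormone-sensing cells. The basal values stood clear of both luminal classes, whose own ranges overlapped (log2 −2.92 ± 0.15 (SE), adjusted p 1.17e-10, for luminal progenitors and −3.36 ± 0.16 for hormone-sensing cells). Adm encodes the vasodilator peptide adrenomedullin. Its levels were 1246, 1364, 1291 and 2327 normalised CPM in basal cells, 406, 200, 436 and 440 in luminal progenitors and 78.9, 78.8, 83.0 and 93.2 in hormone-sensing cells. The 3 classes formed separate steps, and hormone-sensing cells were 18.3-fold below basal cells (log2 −4.19 ± 0.20 (SE), adjusted p 9.11e-11). Edn2, for the vasoconstrictor endothelin 2, was lower and far more uneven. It stood at 37.5, 21.4, 46.8 and 164 normalised CPM in basal cells, where 4OHT-labelled replicate 2 alone was high, and at 1.84, 5.59, 11.4 and 9.11 in luminal progenitors (log2 −3.12 ± 0.41 (SE), adjusted p 7.19e-06). Stc1, for the hormone stanniocalcin 1, was near the limit of detection, with means of 1.96, 3.80 and 1.87 normalised CPM in the 3 classes, and did not pass either contrast with basal cells.

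Glucose entry separated the classes more than most enzymes that follow it. Slc2a1, the glucose transporter GLUT1, was at 2699, 2259, 1784 and 2226 normalised CPM in basal cells, at 513, 300.2, 658 and 470.2 in luminal progenitors and at 157, 123, 131 and 88.6 in hormone-sensing cells. No 2 classes overlapped. Luminal progenitors were 4.71-fold lower (log2 −2.24 ± 0.19 (SE), adjusted p 4.91e-08) and hormone-sensing cells 18.3-fold lower than basal cells (log2 −4.19 ± 0.21 (SE), adjusted p 1.13e-10). The 2 hexokinases, which trap glucose in the cell, behaved differently. Hk1 was at 29.0 to 55.6 normalised CPM in basal cells, 19.99 to 46.9 in luminal progenitors and 21.5 to 38.8 in hormone-sensing cells, and passed no contrast. Hk2, the inducible form, was at 147, 132, 93.1 and 169 in basal cells, at 66.2, 96.5, 90.9 and 96.2 in luminal progenitors and at 15.7, 33.0, 37.7 and 41.0 in hormone-sensing cells. Its hormone-sensing values lay below all others (log2 −2.10 ± 0.21 (SE), adjusted p 4.10e-07 against basal cells), while basal cells and luminal progenitors overlapped (log2 −0.64 ± 0.19 (SE), adjusted p 0.00827).

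Of the 2 phosphofructokinases, which carry out the committed step, Pfkp had the wider range. It was 2.94-fold lower in luminal progenitors and 10.3-fold lower in hormone-sensing cells than in basal cells (log2 −3.36 ± 0.19 (SE), adjusted p 4.22e-10), with 165 to 353, 59.4 to 116 and 13.4 to 30.6 normalised CPM in the 3 classes. Pfkl was at 294 to 330 in basal cells, 153 to 228 in luminal progenitors and 55.6 to 78.3 in hormone-sensing cells. Pfkfb3, which makes the activator of this step, differed less, with log2 fold changes of −0.69 and −0.49 against basal cells. The enzymes further down were abundant in every class. Gapdh averaged 3809 ± 670.3 normalised CPM in basal cells, 2300 ± 300.0 in luminal progenitors and 1423 ± 197 in hormone-sensing cells (SD, n = 4), again as separate steps (log2 −0.73 ± 0.14 (SE) and −1.42 ± 0.15). Aldoa, Tpi1 and Pgk1 overlapped between basal cells and luminal progenitors and passed no test there, with log2 fold changes of 0.10, −0.31 and −0.15, but all 3 were lower in hormone-sensing cells (log2 −0.76, −0.91 and −1.39 against basal cells). Pkm, the last enzyme of the path, averaged 1524 ± 143 normalised CPM in basal cells, 1083 ± 175 in luminal progenitors and 804 ± 149 in hormone-sensing cells (SD, n = 4). Gpi1 and Pgam1 were lower in both luminal classes, by log2 fold changes of −0.96 and −0.88 in luminal progenitors and −1.38 and −1.82 in hormone-sensing cells.

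Aldoc was the exception among the glycolytic enzymes. This second aldolase was at 26.1, 19.5, 21.7 and 21.3 normalised CPM in basal cells, at 103, 53.2, 76.4 and 101 in luminal progenitors and at 27.2, 25.7, 31.8 and 22.6 in hormone-sensing cells. All luminal progenitor values lay above all others, 3.69-fold over basal cells (log2 1.88 ± 0.16 (SE), adjusted p 6.30e-08), and no other member lay wholly above basal cells in this way, where 18.9% of all genes did. The other member called higher in luminal progenitors was Pdk1, a kinase that shuts pyruvate dehydrogenase. Its values overlapped, at 38.5 to 56.6 normalised CPM in basal cells and 46.8 to 73.8 in luminal progenitors, and its call (log2 0.38 ± 0.15 (SE), adjusted p 0.0401) was kept in 5 of 17 alternative analyses. Pdk4, a kinase of the same family, went the other way: 58.8, 55.1, 29.1 and 63.2 normalised CPM in basal cells, 34.9, 18.0, 13.5 and 18.4 in luminal progenitors and 4.76, 1.83, 0.588 and 0.767 in hormone-sensing cells. The last 4 values rest on 7, 3, 1 and 2 UMIs, and the fitted difference from basal cells was −4.86 ± 0.33 (SE) on the log2 scale (adjusted p 3.23e-09).

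At the lactate end, the enzyme and the exporter parted. Ldha, which turns pyruvate into lactate, was at 1647, 1539, 1362 and 1776 normalised CPM in basal cells and 1256, 1205, 1428 and 1571 in luminal progenitors. These ranges overlapped and the difference did not pass (log2 −0.22 ± 0.13 (SE), adjusted p 0.171), while hormone-sensing cells were lower at 506, 631, 734 and 542. Slc16a3, the lactate exporter MCT4, was at 138, 123, 76.0 and 113 normalised CPM in basal cells, 9.19, 14.5, 13.5 and 11.3 in luminal progenitors and 4.08, 12.8, 8.24 and 2.69 in hormone-sensing cells. Basal cells stood far above both luminal classes, with luminal progenitors 9.24-fold lower (log2 −3.21 ± 0.24 (SE), adjusted p 1.19e-08).

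The members that act on mitochondria were Ndufa4l2, Bnip3, Bnip3l and Higd1a. Ndufa4l2, a HIF-induced relative of a respiratory chain subunit, was at 120, 115, 50.2 and 71.6 normalised CPM in basal cells, 7.35, 8.03, 9.38 and 4.75 in luminal progenitors and 8.17, 1.83, 4.71 and 1.53 in hormone-sensing cells. Luminal progenitors were 11.6-fold lower (log2 −3.53 ± 0.26 (SE), adjusted p 1.01e-08), and −2.46 when basal cells were chosen without Acta2. Pericytes are known for Ndufa4l2 as well. The 7 pericyte markers summed to 2.14 to 5.77 CPM in basal cells and 5.64 to 12.2 CPM in luminal progenitors. The basal sum was the lower in 3 of 4 libraries. The part of pericytes in the Ndufa4l2 difference was not tested. Bnip3 and Bnip3l, which mark mitochondria for removal, were lower in luminal progenitors (log2 −1.03 and −0.67) and in hormone-sensing cells (−1.92 and −1.35). With the stricter keratin ratio the values in luminal progenitors were −0.43 and −0.15 and did not pass (edgeR adjusted p 0.0693 and 0.467). Higd1a, a respiratory chain factor, was at 752 to 1233 normalised CPM in basal cells, 434 to 688 in luminal progenitors and 213 to 286 in hormone-sensing cells.

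The remaining members serve protein folding, collagen, glycogen and growth control. Ero1l, the oxidase that forms disulphide bonds, was at 2544, 1879, 1285 and 1916 normalised CPM in basal cells, 818, 655, 865 and 888 in luminal progenitors and 218, 169, 191 and 137 in hormone-sensing cells. The classes formed separate steps (log2 −1.22 ± 0.16 (SE) and −3.41 ± 0.18 against basal cells, adjusted p 9.48e-06 and 2.03e-10). P4ha1 and P4ha2, the collagen prolyl hydroxylases, were 3.96-fold and 3.29-fold lower in luminal progenitors and 6.83-fold and 7.79-fold lower in hormone-sensing cells. Ddit4, an inhibitor of mTORC1 signalling, averaged 1364 ± 237 normalised CPM in basal cells, 322 ± 47.3 in luminal progenitors and 295 ± 54.8 in hormone-sensing cells (SD, n = 4), with log2 fold changes of −2.08 and −2.21. Ppp1r3c, which directs glycogen synthesis, was at 33.6, 13.5, 54.0 and 14.3 normalised CPM in basal cells and at 4.75, 0.349, 5.76 and 1.58 in luminal progenitors (log2 −3.25 ± 0.27 (SE), adjusted p 4.42e-08). Its hormone-sensing sums held 2, 0, 0 and 2 UMIs. Mxi1, a repressor of the MYC family, differed little (log2 −0.61 in luminal progenitors and −0.49 in hormone-sensing cells, the second call kept in 7 of 17 alternative analyses).

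Between the luminal classes, 28 members were lower in hormone-sensing cells than in luminal progenitors and Hif1a alone was higher, where 24.6% of all genes were lower and 21.9% higher (46.4% in either direction), with a median of −0.88 against −0.02. By size, and among genes with at least 20 CPM in luminal progenitors, the differences were led by Egln3 (log2 −2.78 ± 0.23 (SE), adjusted p 7.83e-08), Ero1l (−2.19), Adm (−2.12), Slc2a1 (−1.96), Pfkp (−1.80), Pfkl (−1.64) and Aldoc (−1.62). Vegfa, Pdk1 and Slc16a3 passed narrowly (adjusted p 0.0326, 0.0269 and 0.0444) and were kept in 7, 8 and 9 of 17 alternative analyses. Edn2, Ndufa4l2, Egln1, Ddit4, Hk1, Pfkfb3, Mxi1 and Stc1 did not pass.

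Lists of related genes that are not among the 37 are read against the shares of all genes, 29.5% lower and 26.6% higher in luminal progenitors and 32.4% lower and 27.3% higher in hormone-sensing cells. Of 29 other genes of the hypoxia response, 27 could be tested: 18 were lower and 2 higher in luminal progenitors than in basal cells, and 19 were lower and 1 higher in hormone-sensing cells. Slc2a3, a second glucose transporter, and Car12, a carbonic anhydrase that buffers acid, led the first contrast (log2 −3.98 ± 0.31 (SE) and −3.59 ± 0.25), and Cited2, a HIF-induced restrainer of HIF, went the other way (1.93 ± 0.21). Epas1, which encodes HIF-2α, was at 28.9, 17.4, 32.7 and 21.9 normalised CPM in basal cells and at 1.88 to 3.68 in luminal progenitors. Among 11 further glycolysis genes tested, 6 were lower and 1 higher in luminal progenitors, with the lactate carrier Slc16a1 lowest (−2.46 ± 0.20). Genes of aerobic metabolism were counted in the same way. Of 19 genes for pyruvate entry and the TCA cycle, 9 were higher and 1 lower in luminal progenitors than in basal cells, and 8 higher and 1 lower in hormone-sensing cells. Of 16 respiratory chain genes, 7 were higher and 3 lower in luminal progenitors, and 10 higher and 2 lower in hormone-sensing cells. In luminal progenitors 52.6% of the TCA list and 62.5% of the respiratory chain list were called in either direction, against 56.1% of all genes. The medians of these 2 lists were 0.33 and 0.25 in luminal progenitors and 0.21 and 0.48 in hormone-sensing cells.

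Paired subunits of the respiratory chain moved in opposite directions. Cox4i1, the common form of a cytochrome oxidase subunit, was higher in luminal progenitors (log2 0.85 ± 0.10 (SE)) and hormone-sensing cells (1.28 ± 0.10) than in basal cells, whereas Cox4i2, its HIF-regulated form, was lower (−3.38 ± 0.25 and −4.63 ± 0.37). Cox4i2 stood at 46.0, 34.0, 26.5 and 42.9 normalised CPM in basal cells and at 2.97 to 4.60 in luminal progenitors. Ndufa4 was likewise higher in luminal progenitors than in basal cells (1.36 ± 0.14), opposite to Ndufa4l2. Lists tied to other stimuli were counted as well. Of 15 genes induced by tissue dissociation, 4 were lower and 4 higher in luminal progenitors, but 11 were lower and 1 higher in hormone-sensing cells, led by Egr1 (−3.22 ± 0.28). These are 53.3% and 80% of the list in either direction, against 56.1% and 59.8% of all genes. Of 6 ATF4 response genes, which answer amino acid and folding stress, 5 were lower in luminal progenitors and 6 in hormone-sensing cells. Of 6 glucocorticoid response genes, 4 were higher in each contrast, with 0 lower in luminal progenitors and 2 lower in hormone-sensing cells. The part of preparation stress in the class differences was not tested.

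Counting cells in place of summed transcripts gave the same order of the classes for Slc2a1. After thinning each cell to 2000 UMIs, which left out 34 to 379 basal cells per library, Slc2a1 was seen in 80.4%, 69.4%, 71.5% and 76.7% of basal cells, in 46.7%, 32.1%, 49.6% and 37.8% of luminal progenitors and in 27.2%, 16.0%, 19.1% and 14.2% of hormone-sensing cells. The exact 95% intervals of the first 4 shares ran from 67.2% to 82.4% in all, and cover counting error only. Without thinning the basal shares were 75.3% to 91.4%, at median depths of 2828 to 5152 UMIs. Adm was detected in 60.6% to 74.0% of basal cells and Vegfa in 35.5% to 48.5%. Hif1a was detected in 14.2% to 20.7% of basal cells and in 3.85% to 5.56% of luminal progenitors. Edn2 was detected in 1.71%, 2.06%, 2.595% and 7.34% of basal cells and in 0.240% to 1.78% of luminal progenitors. These shares count cells with a UMI at this depth, not cells that express the gene. Cells gated on endothelial markers, 7 to 155 per library at median depths of 1820 to 3199 UMIs, served as another cell type and were not a blank. Slc2a1 was seen in 50.8% to 66.7% of them after thinning and Adm in 44.4% to 66.7%. Stc1 was seen in 12.9% to 15.9% of endothelial-gated cells in 3 libraries but in 0.205% to 0.534% of basal cells. In basal cells the 7 endothelial markers summed to 10.4 to 58.3 CPM, most of it Pecam1, against 3421 to 4738 CPM in the endothelial-gated cells.

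Cells that met no class included some of the highest levels. The group examined here, chosen after its values were seen, had basal keratins in the majority but too many luminal keratin transcripts for the basal gate. It held 349, 270, 688 and 741 cells in the 4 libraries, or 9.95% and 6.38% of the cells with at least 1000 UMIs after corn oil against 14.7% and 13.7% where the label was 4OHT. On the scale of plain CPM, 30 of the 37 members were above the basal cells of the same library in all 4 libraries, where 15.6% of all genes were, and 29 were above all 3 classes, where 7.38% were. Ero1l stood at 3077, 3439, 3291 and 3392 CPM in these cells against 2876, 1963, 1445 and 1869 in gated basal cells. Egln3 was at 760.1, 845, 769 and 618 CPM against 547, 403, 314 and 361. Edn2 was at 64.1, 147, 122 and 529.8 CPM against 42.4, 22.3, 52.6 and 160.1, and again 4OHT-labelled replicate 2 was highest. Slc2a1 was higher than in basal cells in 3 libraries and lower in corn oil replicate 1, at 2667 against 3051 CPM. Hif1a and Pdk4 were below basal cells in all 4 libraries. The members made up 3.54% to 4.23% of UMIs in these cells. Their median depth was 6200, 3576, 5181 and 3056 UMIs against 5152, 3172, 3850 and 2828 in basal cells. Luminal progenitor markers summed to 917 to 1945 CPM there, against 1128 to 2516 CPM in basal cells and 13140 to 16430 CPM in luminal progenitors. Luminal markers, which include the keratins that kept these cells out of the basal gate, summed to 4512 to 8226 CPM against 1962 to 2579 in basal cells. Hormone-sensing markers summed to 68.7 to 161 CPM against 55.6 to 88.7 in basal cells. No doublet caller was run, and the part of doublets in this group was not tested.

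**Figure D3:**
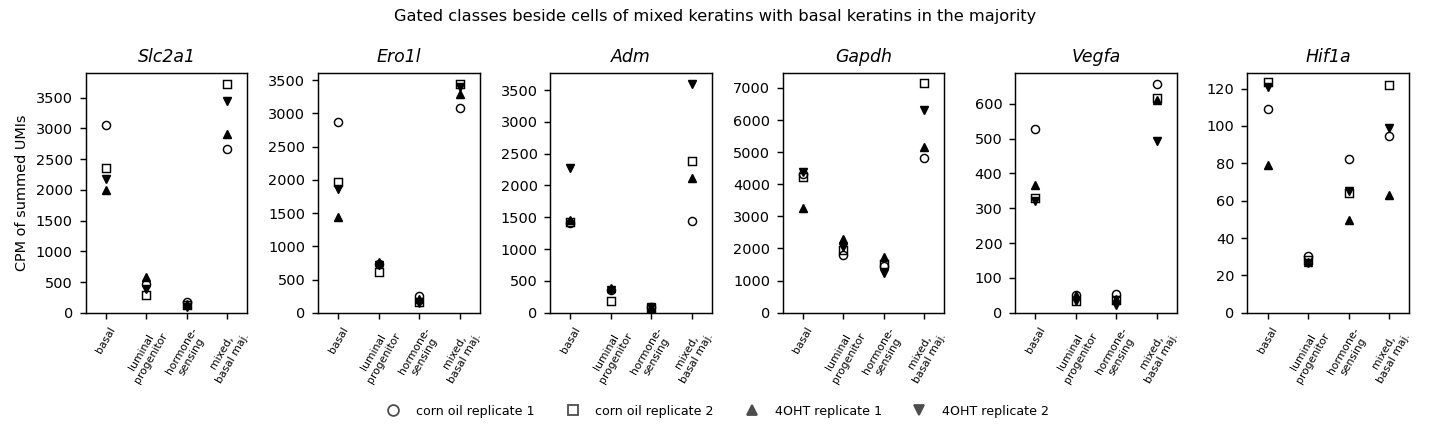
Plain CPM of 6 genes in the 3 gated classes and in the cells of mixed keratins with basal keratins in the majority, 1 marker per library. The mixed cells are highest for Ero1l, Adm, Gapdh and Vegfa in all 4 libraries, and Hif1a is below its basal value in each.

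The design compares glands of mice given the Cre-inducing drug with those given vehicle, to ask what Tfap2c does there. All mice carried the floxed alleles and Krt5-CreERT2, so an effect of the drug and one of Tfap2c loss cannot be told apart. The main comparison of 4OHT-labelled with corn oil libraries, an edgeR fit without a replicate block, gave no called member in any class. With edgeR's quasi-likelihood test on 2 libraries against 2, the adjusted p threshold of 0.05 was met by 0 of 10788 genes in basal cells (0%), 0 of 10120 in luminal progenitors (0%) and 1 of 7589 in hormone-sensing cells (0.0132%). At an unadjusted p under 0.05, 3 of 37 members and 4.31% of all genes passed in basal cells, 2 of 37 and 1.64% in luminal progenitors, and 0 of 32 and 3.16% in hormone-sensing cells, where Edn2, Ndufa4l2, Pdk4, Stc1 and Ppp1r3c had too few counts to test. DESeq2 called 38, 1 and 7 genes in the 3 classes, and among members Edn2 in basal cells.

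In basal cells the 3 smallest p-values among the members belonged to Ndufa4l2, Edn2 and P4ha2. Ndufa4l2 was lower in both 4OHT-labelled libraries, at 50.2 and 71.6 against 120 and 115 normalised CPM (log2 −0.96 ± 0.26 (SE), p 0.00806, edgeR adjusted p 0.999). With the replicate number as a block it was −0.98 and passed (edgeR adjusted p 0.0212). This block called 167 genes in basal cells in place of 0. Nothing in the labels says that the numbers pair the libraries. Deviations from the group means in same-numbered basal libraries nonetheless correlated at 0.559 over 10788 genes. Edn2 was higher, at 46.8 and 164 against 37.5 and 21.4 (log2 1.83 ± 0.59 (SE), p 0.0194, edgeR adjusted p 0.999), and the difference was 0.67 without 4OHT-labelled replicate 2. Without 4OHT-labelled replicate 1 or without corn oil replicate 1 it was 2.47 and 2.30. Each of these fits left 1 library in a group. P4ha2 was at 86.2 and 94.6 against 162 and 116 (log2 −0.63 ± 0.25 (SE), p 0.0410, edgeR adjusted p 0.999). In luminal progenitors, Stc1 was at 1.74 and 1.19 against 4.75 and 7.50 normalised CPM, from 13, 6, 31 and 43 UMIs (log2 −2.04 ± 0.51 (SE), p 0.00322, edgeR adjusted p 1.0). Edn2 was again higher there, at 11.4 and 9.11 against 1.84 and 5.59 (log2 1.46 ± 0.52 (SE), p 0.0200, edgeR adjusted p 1.0). The difference was 0.87 without corn oil replicate 1 and 2.46 without corn oil replicate 2, each with 1 corn oil library left. Pdk4 had a log2 fold change of −0.76 ± 0.38 (SE) in luminal progenitors, with overlapping values. In hormone-sensing cells the smallest p-values were those of Hk2, Pfkp and Vegfa (log2 0.68, −0.65 and −0.56, unadjusted p 0.103, 0.131 and 0.146, edgeR adjusted p 1.0). The 2 groups overlapped for 27 of 37 members in basal cells (69.7% of all genes), 23 in luminal progenitors (75.9%) and 26 in hormone-sensing cells (69.4%). Both 4OHT-labelled values lay above both corn oil values for 2, 12 and 5 members, against 15.3%, 13.3% and 16.5% of all genes. They lay below for 8, 2 and 6 members, against 15.1%, 10.9% and 14% of all genes. These are counts of ranges with no test.

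The directions of the members depended on the library and the gate. In basal cells 8 of 37 log2 fold changes were above 0, against 48.1% of all genes, and in luminal progenitors 28 of 37, against 47.6%. Of the 15 genes induced by tissue dissociation, 13 were above 0 in basal cells (median 0.49), 12 in luminal progenitors (0.31) and 10 in hormone-sensing cells (0.24). Their unadjusted p (edgeR) was under 0.05 for 4, 2 and 1 of them, 0 passed once adjusted, and their part in the members' directions was not tested. Between the libraries numbered 1, 34 members were lower in the 4OHT-labelled basal cells (median −0.48 on the log2 scale), and between those numbered 2, 27 were higher (0.10). In luminal progenitors 29 and 22 members were higher, and in hormone-sensing cells 25 were higher between the libraries numbered 1 and 27 lower between those numbered 2. Without corn oil replicate 1, 19 of 37 basal values were above 0, and without 4OHT-labelled replicate 1, 15 were. When every cell was placed on the side of its larger keratin sum, which takes the cells of mixed keratins into the basal class, 19 of 37 basal values were above 0 (median 0.0005 on the log2 scale), and the stricter keratin ratio gave 2 of 36 (median −0.48). The difference of the 4OHT effect between classes was tested as an interaction. No member passed in any of the 3 class pairs, where 0%, 0.00833% and 0.00833% of 11998 genes did. At an unadjusted p under 0.05, 5, 1 and 5 members passed, against 4.12%, 5.95% and 3.83% of all genes, and DESeq2 called 0 members. The smallest p-values for luminal progenitors minus basal cells were those of Stc1 (−2.65 ± 0.70 (SE), edgeR adjusted p 0.73), Slc2a1 (0.79 ± 0.28, 1.0) and Ero1l (0.72 ± 0.27, 1.0).

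**Figure D4:**
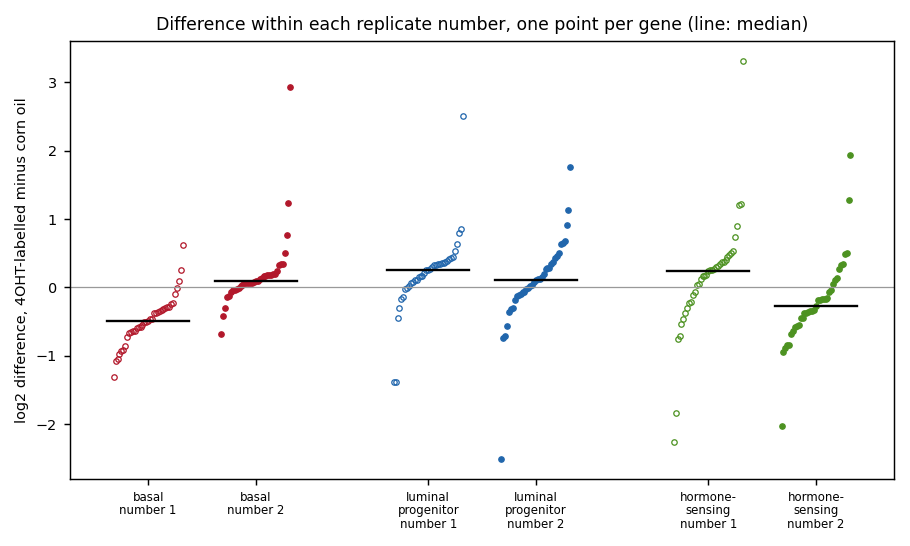
Log2 difference between the 4OHT-labelled and the corn oil library of the same replicate number, 1 point per gene sorted by value within each column, with the median as a line. In basal cells the medians are −0.48 for number 1 and 0.10 for number 2.

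Of the 37 members, 4 were lower in the libraries numbered 2 than in those numbered 1 in all 3 classes and both groups, as were 11% of all genes. Eno1, the enolase of glycolysis, was at 1511 and 1215 normalised CPM in the basal cells of the libraries numbered 1 and at 578 and 526.5 in those numbered 2. Luminal progenitors gave 720 and 940 against 240.3 and 244, and hormone-sensing cells 395 and 501 against 204 and 124, so the libraries numbered 2 were lower in all 3 classes and both groups, by 1.01 to 2.01 on the log2 scale. P4ha1 was lower by 0.67 to 1.43 in these 6 pairs. Pfkp differed by −0.98 to −0.24 and Pgk1 by −0.79 to −0.0016. A gap of at least 1.5-fold in all 6 pairs, which Eno1 and P4ha1 had, was seen in 1.46% of all genes. Eno1b, a near-identical copy of Eno1 in the annotation, held 476 UMIs in all and stood at 13.2 and 6.14 normalised CPM in basal cells of the libraries numbered 1 and 11.7 and 9.18 in those numbered 2. The labels do not say what the numbers stand for, and a cause was not tested. Because both groups hold 1 library of each number, the Eno1 comparison between treatments had a wide error (log2 −0.27 ± 0.54 (SE) in basal cells).

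**Figure D5:**
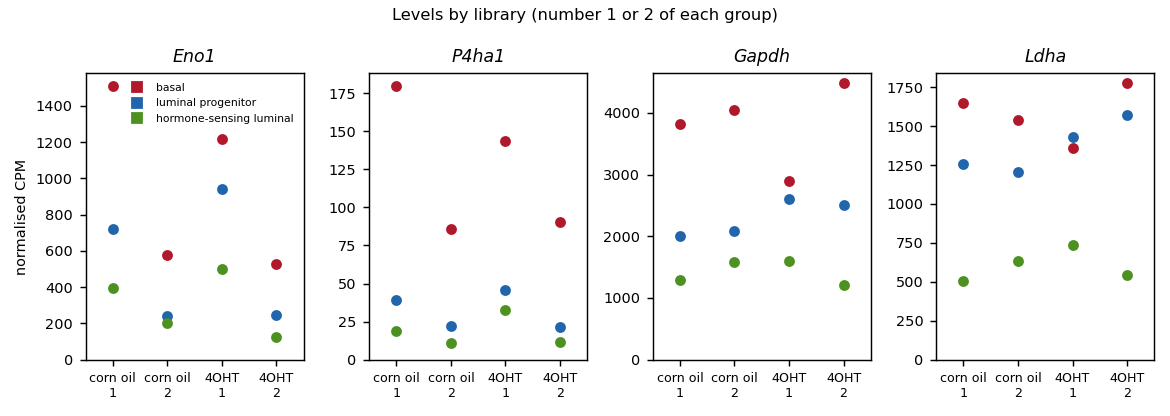
Normalised CPM of Eno1, P4ha1, Gapdh and Ldha in each library, 1 point per class. Eno1 and P4ha1 are lower in both libraries numbered 2 in every class, whereas Gapdh and Ldha are not.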

How the data were processed

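What the authors deposited is an unnormalised matrix of UMI counts for each library, with genes as rows and cells as columns. The submitters' processing notes name Cell Ranger 3.0.1 and the mm10 genome. Strand, introns and cell calling settings are not given in the sources used here. Total counts per library are in the report.

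Counts were summed per library and class and tested with edgeR 4.0.16 in R 4.3.3 (TMM factors, filterByExpr, quasi-likelihood F-test, Benjamini-Hochberg adjustment, threshold 0.05), with DESeq2 1.42.0 as an alternative. Class contrasts and interactions used 12 sums in 1 fit with library as a block. The labels give 1 mouse per library. The members and lists were chosen with earlier results of these data known. Values per library are given for up to 7 passing members in each direction with at least 20 CPM in the higher class, the 3 smallest p-values per treatment comparison, and 11 always-named genes. Promoters are those of the 6 named members with the largest differences and a motif. Tests were checked on simulated counts, where 95% of 200 genes changed by a log2 of 2 were recovered among 10376 genes for luminal progenitor against basal cells, with 11 false calls. In the simulated basal treatment comparison 55% of 200 such genes were recovered among 10551, with 4 false calls. The simulated libraries shared a mean profile scaled to depth, with no difference by library or replicate number. These shares therefore do not describe smaller changes or data with such differences. Doublets were not called, and an alternative left out the 5% of cells with the most UMIs. Aldoa has 2 identifiers, of which the one with 130646 UMIs was used and the other held 1. Copies of glycolytic genes elsewhere in the genome may share reads. Intervals are exact (Clopper-Pearson, 95%) and cover counting error only. With 2 mice per group, the treatment p-values rest on the spread between these mice, with each gene's variance estimate drawn toward those of other genes. The class contrasts and interactions had library as a block, so their p-values rest on the spread left within libraries.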

Additional observations from a re-analysis of the deposited data

Results flagged for a closer look

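Cells that met no class were outside the main comparisons, and 12 members had plain CPM in both 4OHT-labelled libraries that lay above both corn oil libraries beyond the counting intervals, as did 1.23% of 11135 genes. No member lay below in this way, where 1.9% of genes did. Counting intervals narrow as counts rise, so abundant genes pass at smaller differences, and these shares were not matched for abundance. The lower 4OHT-labelled value and the higher corn oil value were 1870 and 1340 CPM for Adm, 91.6 and 64.3 for Edn2, 548 and 473 for Bnip3, and 1642 and 1307 for Ddit4. They were 69.9 and 49.6 CPM for Pdk1, 2525 and 2311 for Slc2a1, 181 and 142 for Hk2, and 2723 and 2603 for Aldoa. They were 1299 and 1220 CPM for Tpi1, 4669 and 4225 for Gapdh, 2013 and 1628 for Ldha, and 1458 and 1283 for Higd1a. These intervals cover counting error only, with 2 libraries per group, and the make-up of the cells moved too: cells with basal keratins in the majority were 349 of 572 and 270 of 838 in the corn oil libraries and 688 of 1239 and 741 of 1358 in those labelled 4OHT. Their part in the difference was not tested.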

How the results depend on the processing

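Of the members called in the class contrasts, 21 of 31 (luminal progenitor against basal), 31 of 33 (hormone-sensing against basal) and 20 of 29 (hormone-sensing against luminal progenitor) kept their call under every one of 17 alternatives (16 for Ppp1r3c). With a stricter keratin ratio 3 members were higher and 21 lower in luminal progenitors, and Gapdh, Pkm, Pfkl, Hk2, Bnip3, Bnip3l, Higd1a and Mxi1 lost their calls. Members called higher in luminal progenitors numbered 1 and not 2 with DESeq2, a mean of at least 20 CPM, the basal gate without Acta2, progenitor markers required, cells thinned to 2000 UMIs, every cell placed by its larger keratin sum, scaling without TMM factors (both chosen after seeing the data), and no replicate block, and 1 to 2 when each library was left out. Without TMM factors the median of all genes was −0.31, −0.10 and 0.23 in the 3 class contrasts, 1919 of 6345 genes called were higher in luminal progenitors than in basal cells (2965 of 6246 with TMM) and 3387 of 5294 in hormone-sensing cells against luminal progenitors (2434 of 5170), and 1 member was higher and 33 lower in the first, 2 higher and 22 lower in the last. Restricting the fit to a mean of at least 20 CPM tested fewer genes and called 2642, 2936 and 2488 genes against 6246, 6655 and 5170. Without the library block, 5041, 5931 and 4234 were called. Members that were not called changed sign. In luminal progenitors against basal cells Aldoa went to −0.0090, −0.17 and −0.062 with the larger keratin sum, without TMM and with progenitor markers required, and the stricter ratio gave Hk1 0.024, Ldha 0.15, Pgk1 0.40 and Tpi1 0.044. Pgk1 was 0.023 without Acta2 and −0.19 to 0.046 with a library left out. In hormone-sensing against basal cells Hk1 was 0.014 with the stricter ratio, Stc1 −0.013 with DESeq2, −0.081 with the larger keratin sum and −0.33 to 0.30 with a library left out, and Pdk1 0.25 with the stricter ratio, 0.17 thinned, 0.10 without the cells of most UMIs, 0.0099 at 20 CPM and −0.23 to 0.13 with a library left out. Against luminal progenitors, Ddit4 was 0.12 without TMM and 0.029 at 20 CPM, Mxi1 −0.0040 with the larger keratin sum, and Hk1 0.043 without the cells of most UMIs, 0.10 at 20 CPM, 0.19 without TMM and −0.23 to 0.060 with a library left out. All of these are log2 fold changes, and the cause was not tested.

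For 4OHT, genes called in basal, luminal progenitor and hormone-sensing cells were 0, 0 and 1 in the main analysis, 38, 1 and 7 with DESeq2, and 93, 39 and 59 with no filter, where 1 member was higher in basal cells. Leaving out 1 library, with the lone library taken to vary like the others, gave 17 to 127, 31 to 64 and 4 to 80 genes, and 0 to 1 member higher in basal cells and in luminal progenitors. The 1 gene in hormone-sensing cells was lost (0 called) at 20 CPM, when thinned and with the larger keratin sum, and the stricter ratio called 1 gene in luminal progenitors. For the interactions of hormone-sensing cells with basal cells, 1 gene was called in the main analysis, 5 with DESeq2, 6 with the larger keratin sum or without TMM, 2 with progenitor markers required, 3 with stricter cell quality, 80 with no filter, 0 to 24 with a library left out, and 0 under the other 6 gates, filters or scalings that moved it. With luminal progenitors, 1 gene became 3 without TMM, 35 with no filter (1 member), 0 when thinned, at 20 CPM or without the cells of most UMIs, and 0 to 8 with a library left out. For luminal progenitors minus basal cells, no filter gave 39 genes and leaving out a library 2 to 12. As the replicate numbers are only numbers, a replicate block was an alternative: it called 167, 9 and 3 genes in the 3 classes, with 1 member lower in basal cells, Ndufa4l2 (−0.98, adjusted p 0.0212). Deviations of same-numbered libraries correlated at 0.559, 0.317 and 0.22. In hormone-sensing cells, 151 to 447 per library, 5 members had too few counts to test.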
